A study of Mus musculus with 2 samples.

Results

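NPC-like tumor cells, meaning tumor cells that carry genes of neuronal progenitors, were followed in orthotopic gliomas grown in mice. A barcode, standing for 1 droplet and in most cases 1 cell, was counted as NPC-like when it held at least 1 unique molecular identifier (UMI, a counted RNA molecule) for at least 3 of the 6 genes Insm1, Nhlh1, Igfbpl1, Chgb, Sstr2 and Neurod1. It also had to pass the study's quality limits, not be far shallower than its matrix's median barcode and hold at most 3 UMIs of the microglial and macrophage genes C1qa, C1qb and C1qc. The NPC-like barcodes were thus chosen by the measured counts of these 6 genes. By this rule 3312 of the 56943 deposited barcodes were NPC-like, which was 8.95% of the 36998 barcodes that passed every step other than the markers. The tumors came from mGSC, a glioblastoma stem cell line of the genotype Trp53+/- and Nf1+/-, placed in the right striatum of female C57BL/6 mice that were a few weeks old when bought. All tumors therefore came from a single line, and vehicle and Xevinapant tumors carried the same alleles. Xevinapant, an oral antagonist of the inhibitor of apoptosis proteins (IAPs), was given at 50 mg/kg per day for 7 days to 1 group and vehicle to the other, with 4 tumors per group. The other tumor barcodes (31938) passed the same limits with at most 2 of the 6 genes. They also held at most 3 UMIs over each of 4 marker sets of other cell types, a limit that NPC-like barcodes did not have to meet. These sets were the immune list, the endothelial list, the fibroblast genes Dcn, Lum and Dpt, and the mural genes Rgs5, Kcnj8, Abcc9 and Higd1b.

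The labels name 1 pooled library and 1 batch per group, and give the molecule as total RNA for vehicle and polyA RNA for Xevinapant, so treatment cannot be told apart from these. Vehicle 1 and 3, Xevinapant 1 and 2, and Xevinapant 3 and 4 were nearly alike. Their mean levels over NPC-like barcodes, each scaled to the same total, differed by 1.05 to 1.35 times sampling noise. Sampling noise here is the standard error from the spread between barcodes, which includes differences between cells. The remaining 9 pairs within a group differed by 1.60 to 2.79 times. Over all tumor barcodes, which are more numerous, the 3 joined pairs differed by 1.22 to 2.41 times sampling noise. This was above the joining limit of 1.5 for both Xevinapant pairs, and the 9 others differed by 4.39 to 8.71 times. Each such pair was taken as 1 unit, which left 3 vehicle and 2 Xevinapant units. In what follows, values for vehicle units stand in the order vehicle 1 and 3, vehicle 2, vehicle 4, and those for Xevinapant units in the order Xevinapant 1 and 2, Xevinapant 3 and 4. These units held 743, 630 and 459 NPC-like barcodes under vehicle and 192 and 1288 under Xevinapant. The study's methods speak of samples of individual mice, with 4 tumors per group, but give no mouse for a given matrix, and joining the near-alike matrices was a choice made here. With joined units, p-values measure the spread between these samples only. The 8 matrices held 71835789 to 300206053 UMIs, and the median NPC-like barcode held 25229 to 30012 UMIs per unit against 13323 to 18147 in the other tumor barcodes.

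Neuronal progenitors arise when proneural transcription factors such as the neurogenins switch on Neurod, Nhlh and Insm1 genes in a dividing precursor. Their products lead the cell out of the cycle, shut down glial and stem cell programs, and switch on the cytoskeleton, adhesion and secretory genes of the young neuron. Notch signaling from neighboring cells, through Hes repressors, holds precursors back from this step, as do the Id proteins and, for late neuronal genes, the repressor Rest. In glioblastoma, an NPC-like state that uses this program stands beside OPC-like (oligodendrocyte progenitor), AC-like (astrocyte) and MES-like (mesenchymal) states.

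Proneural and Neurod factors bind E-boxes, short DNA motifs. The form CAGATG, which reads as CATCTG on the other strand, and the palindrome CAGCTG are both used by factors of this family. Among the 20 genes with the largest NPC-like against other tumor ratios, named below, 14 had a promoter in the RefSeq table (GRCm38.p6, 250 bases before the start read on both strands), and 5 of these held 1 of the 2 motifs. Over all 14930 genes with such a promoter, 25.9% held either motif, CAGATG being in 13.9% and CAGCTG in 14.4%. A stretch around the match is shown for the 2 of these genes whose products mark early and later steps, the factor Nhlh1 and the RNA-binding protein Elavl3, with the motif in capitals and read on the strand of the gene. The first lies at chr1:172057767-172057826 on the minus strand and the second at chr9:22052034-22052093 on the minus strand, both upstream of the start of transcription.
Nhlh1: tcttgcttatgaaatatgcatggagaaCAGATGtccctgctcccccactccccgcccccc
Elavl3: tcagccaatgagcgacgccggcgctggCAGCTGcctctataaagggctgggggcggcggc
Both are matches of letters and were not tested for binding.

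The 6 genes that made the rule were not found together to the same degree. Neurod1, a basic helix-loop-helix factor of neuronal differentiation, was detected in 96.1% of NPC-like barcodes, but also in 49.0% of the other tumor barcodes. Insm1, a zinc finger factor that drives progenitors toward their last divisions, was detected in 87.7%, and Sstr2, a somatostatin receptor, in 65.9%. Igfbpl1, a secreted protein of young neurons, reached 46.6%, Nhlh1 46.1%, and Chgb, a granin of secretory granules, 40.7%. These shares follow from the rule and depth. Just inside the threshold, the 1747 barcodes with 3 detected genes (52.7% of the NPC-like barcodes) held a median of 7 UMIs over the 6 genes, and 172 of them held 1 UMI per gene. Just outside it, the 5315 barcodes with 2 detected genes held a median of 4 UMIs. At the other end, the 359 barcodes with all 6 genes held a median of 110 UMIs over them.

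Free RNA can place a few UMIs of these genes in cells that do not make them. Of the 1780 barcodes with at least 50 C1q UMIs, which are microglia or macrophages, 4.33% reached 3 of the 6 genes (exact binomial 95% interval 3.43 to 5.38%, counting error only), at a median depth of 11854 UMIs against 16474 in the barcodes that passed. Thinned to 4000 UMIs, 0.578% of them reached 3 genes against 2.84% of the barcodes that passed. The 421 endothelial barcodes, with over 3 UMIs of the endothelial marker list, were a subset of the barcodes that passed. At a median of 20235 UMIs, 14.7% of them (62) reached 3 genes and so counted as NPC-like themselves. After thinning, 2.99% reached 3 genes. At 5 genes the shares were 2.24% in the barcodes that passed, 1.01% in those with at least 50 C1q UMIs and 2.38% (exact binomial 95% interval 1.14 to 4.32%) in endothelial barcodes, and the thinned shares were 0.848% in the barcodes that passed, 0.0578% in those with at least 50 C1q UMIs and 0.498% in endothelial barcodes. The share of endothelial barcodes was therefore not below that of the barcodes that passed at 3 genes, nor at 5 genes without thinning. As a subset of the barcodes that passed, the endothelial ones are no independent measure of background. NPC-like barcodes cannot be told from background on the detection of these genes alone. The 830 barcodes with 5 or 6 of the genes (25.1% of the NPC-like barcodes) are given beside the whole. They made up 24.6%, 16.8% and 13.9% of the NPC-like barcodes in the vehicle units and 23.4% and 33.5% in the Xevinapant units.

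Many neuronal genes that the rule did not use were highest in barcodes with all 6 rule genes, while the newborn neuron list as a whole summed to 5811 CPM with 0, 5712 with 3 and 14758 with 6. Levels are in CPM, UMI counts scaled to the same total in every sum, here summed over all barcodes of a given number of detected genes. Dcx, a microtubule protein of migrating young neurons, stood at 29.2 CPM with 0, 54 with 3 and 641 with 6. Ncam1, an adhesion molecule, went the other way, at 869 CPM with 0, 587 with 3 and 677 with 6. Tubb3, the neuronal beta-tubulin, stood at 116 CPM with 0, 214 with 3 and 1222 with 6, and Elavl3, an early neuronal RNA-binding protein, at 23.1 CPM with 0, 35.4 with 3 and 419 with 6. For Dcx, Tubb3 and Elavl3 the barcodes with 3 genes lay closer to those with 2 than to those with 6, at 36.4, 156 and 26.3 CPM in barcodes with 2. Rbfox3 (the neuronal nuclear antigen NeuN) stood at 2.67 CPM with 0, 14.3 with 3 and 221 with 6, Snap25, which drives vesicle fusion, at 2.10 CPM with 0, 9.37 with 3 and 258 with 6, and Cntn2, an axonal adhesion protein, at 1.75 CPM with 0, 3.72 with 3 and 312 with 6. The barcodes with at least 50 C1q UMIs held 25.2 CPM of Dcx, 14.9 CPM of Elavl3 and 2.99 CPM of Cntn2. The rule genes and these genes were read in the same barcodes, so the levels are a description with no test, and Xevinapant 3 and 4 supplied 197 of the 359 barcodes with all 6 genes. By the neuronal genes outside the rule, neuronal character was clearest in the barcodes with 5 or 6 genes. Those with 3 stood near the tumor barcodes with 2. Of 15 stem and progenitor genes, 3 were higher and 10 lower in barcodes with 5 or 6 genes in all 5 units. Of 24 G2/M genes 0 were higher and 16 lower there (24.5% and 29.1% over all genes). These genes thus do not bear out the progenitor part of the label in those barcodes.

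**Figure D1:**
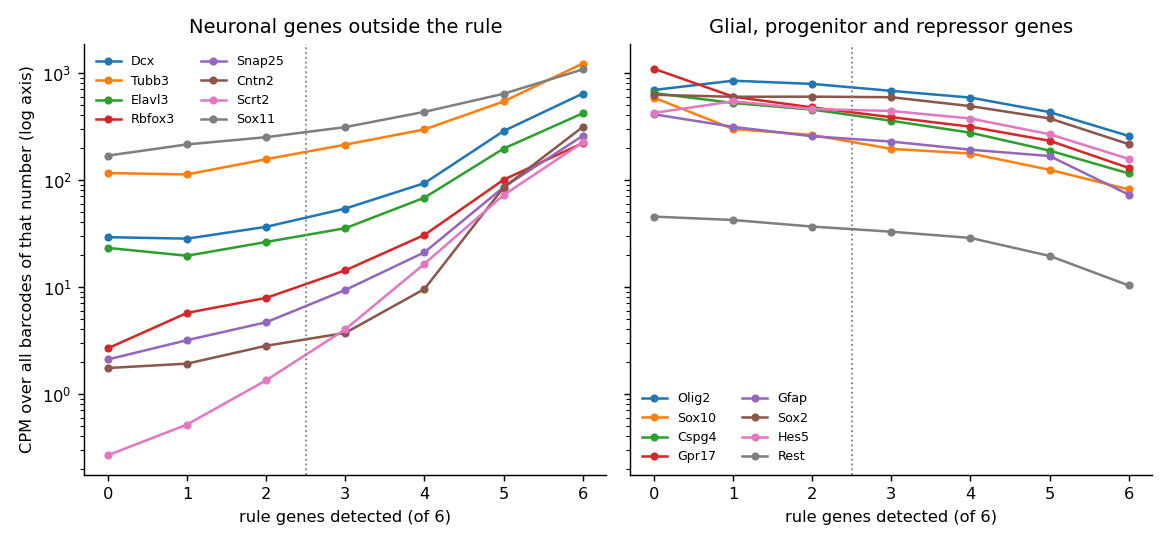
Levels in CPM (log axis) of 8 neuronal genes outside the rule (left) and 8 glial, progenitor and repressor genes (right) against the number of the 6 rule genes detected in a barcode, all units summed; the dotted line marks the limit of 3. The neuronal genes shown turn upward beyond 3 genes, with Dcx going from 54.0 CPM at 3 to 641 CPM at 6, while Sox10, Gpr17 and Rest are lowest at 6.

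The same order held in each unit. Dcx in NPC-like barcodes was at 161, 126 and 106 CPM in the vehicle units and 137 and 177 CPM in the Xevinapant units, against 20.4 to 43 CPM in the other tumor barcodes. All 5 units lay above the whole range of the other tumor barcodes, and the groups overlapped. In barcodes with 5 or 6 genes, Dcx was at 357, 413 and 398 CPM in the vehicle units and 442 and 491 CPM in the Xevinapant units. Rbfox3 was at 45.8, 34 and 34.4 CPM in the vehicle units and 36.7 and 66.4 CPM in the Xevinapant units in NPC-like barcodes and at 1.77 to 8.64 CPM in the other tumor barcodes. Its highest unit was Xevinapant 3 and 4. Snap25 was at 72.3, 34.7 and 21.5 CPM in the vehicle units and 44.4 and 48.4 CPM in the Xevinapant units, against 1.98 to 4.53 CPM, and was highest in vehicle 1 and 3 both in NPC-like barcodes and among those with 5 or 6 genes, where it reached 241 CPM. Syp, the vesicle protein synaptophysin that the study used as an NPC-like marker together with Dcx and Rbfox3, was at 38.6, 38 and 23.9 CPM in the vehicle units and 44.1 and 49.2 CPM in the Xevinapant units, against 7.00 to 12.6 CPM.

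**Figure D2:**
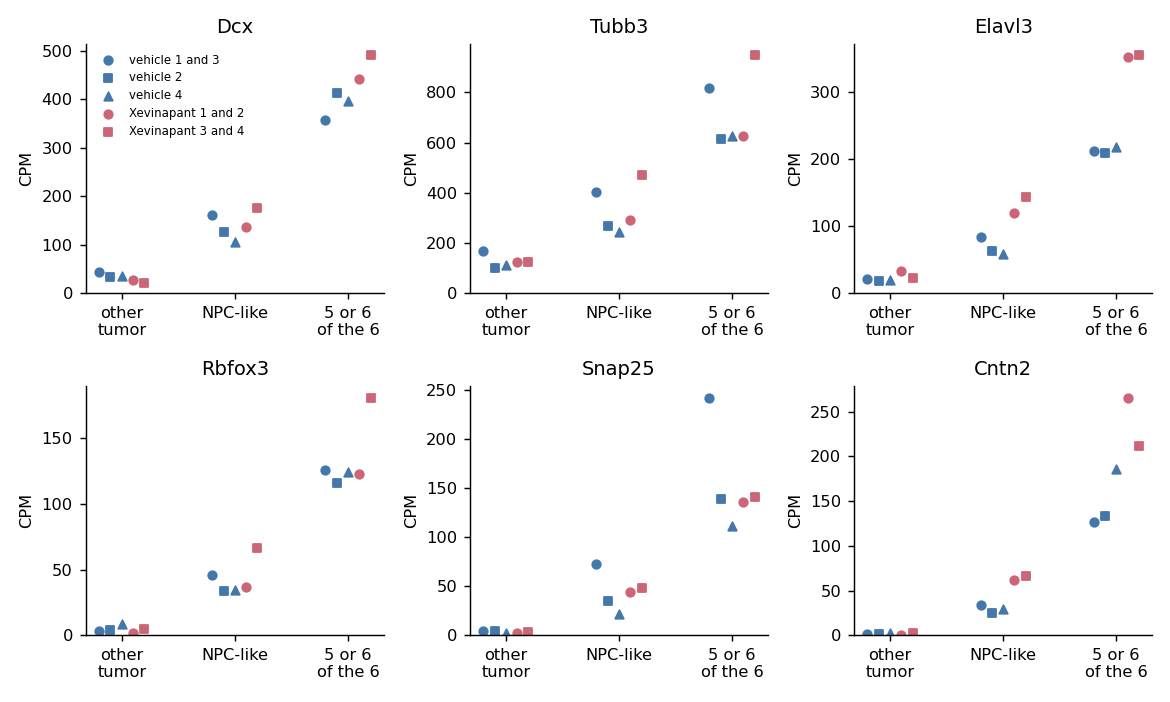
CPM of 6 neuronal genes outside the rule in the other tumor barcodes, in NPC-like barcodes and in those with 5 or 6 of the 6 rule genes; each point is 1 unit (blue vehicle, red Xevinapant). For each gene all 5 NPC-like points lie above the 5 points of the other tumor barcodes, and those with 5 or 6 genes lie higher still.

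Lists were counted among genes at 5 CPM or more in at least one class. A gene such as Snap25 passed this limit only through the NPC-like barcodes in which it was high, so that the counts and medians lean upward by construction and are given as a description. Over all 10530 such genes in the matrices, 25.5% were higher and 25.8% lower in NPC-like than in the other tumor barcodes in all 5 units, and nothing is read from list counts against this background since the rule used the same contrast. Of 33 genes of newborn neurons, 25 were higher in all 5 units and 3 lower. Of 21 genes of the proneural list 17 were higher and 2 lower, and of 15 synaptic and mature neuronal genes 11 were higher and 0 lower. The proneural list holds proneural factors and their partners, but also Id1, Id2, Id3 and Rest, which hold neuronal differentiation back. All 10530 genes had a median log2 ratio of -0.00214, the newborn neuron list one of 0.68, the proneural list 0.47 and the synaptic list 0.50. Of 12 secretory granule genes 8 were higher and 1 lower, among them Chga, which makes chromogranin A, at 49.5 to 129 CPM against 11.9 to 26.1 CPM. Of 7 OPC genes used by the study 0 were higher and 7 lower.

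The 20 genes with the highest ratios, by the smallest log2 ratio over the units, included the rule genes Nhlh1, Chgb, Igfbpl1, Insm1 and Neurod1. The other 15 were Ebf3, Afap1, Dcx, Elavl3, Trp53i11, Shf, Rnd3, Cemip2, Tubb3, Cplx2, Clmp, Crmp1, Dusp4, Cdk5r1 and Lgr4. Ebf3, a factor that acts downstream of proneural factors in young neurons, was at 64.9, 94.8 and 50.5 CPM in the vehicle units and 93.8 and 114 CPM in the Xevinapant units, against 8.50 to 23.8 CPM. Its log2 ratio was 1.95 to 3.32 over the units. Afap1, an actin filament protein, had the narrowest spread of these, with log2 ratios of 1.90 to 2.25 and levels of 81.8 to 139.8 CPM against 21.2 to 35.7 CPM. Rnd3, an atypical small GTPase that acts in the migration of young neurons, was at 112 to 302 CPM against 44.2 to 72.2 CPM. Cdk5r1, the activator of the neuronal kinase Cdk5, was at 76.2 to 115 CPM against 26 to 38.7 CPM. Crmp1, which mediates semaphorin responses of growing axons, was at 128 to 197 CPM against 25 to 64.8 CPM, and Cplx2, a complexin of synaptic vesicle release, at 53.4 to 65.6 CPM against 18 to 27.7 CPM.

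Among the proneural factors the levels did not all follow the same course. Neurog1 and Neurog2, the neurogenins, were highest with 5 detected genes, at 27.7 and 46.7 CPM, and stood at 16.7 and 25.7 CPM with 6. Later factors were highest with 6 genes: Neurod2 at 41.3 CPM against 0.7 with 3, Neurod6 at 26 against 0.75, and Nhlh2 at 11.3 against 0.0833. Scrt2, a repressor expressed in newborn neurons, went from 0.267 CPM with 0 to 224 with 6, and Myt1l, which represses non-neuronal genes, from 1.01 to 89.8 CPM. Sox11, a partner of the neurogenins in early neurons, went from 169 to 1077 CPM, and Sox4 from 565 to 1434 CPM. Neurog1 in NPC-like barcodes was at 7.73, 8.61 and 8.18 CPM in the vehicle units and 22.2 and 14.4 CPM in the Xevinapant units, and Neurog2 at 3.59, 3.16 and 13.6 CPM in the vehicle units and 8.06 and 24 CPM in the Xevinapant units. Neurog2 was highest in vehicle 4 and in Xevinapant 3 and 4, and Neurog1 in both Xevinapant units, so the neurogenins did not rank the units alike.

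Of the brakes on neuronal differentiation described here, all but Id2 were lower with all 6 rule genes than with 0. Rest, which silences late neuronal genes, stood at 45.4 CPM with 0, 32.8 with 3 and 10.3 with 6. Id1 stood at 152 CPM with 0, 170.4 with 3 and 46.3 with 6 and Id3 at 273 CPM with 0, 137 with 3 and 60.6 with 6; Id2, by contrast, stood at 287 CPM with 0, 325 with 3 and 527 with 6. Hes1 and Hes5, the repressors switched on by Notch, were at 19.1 and 157 CPM with 6 genes against 46 and 423 CPM with 0. Notch1, the receptor, was at 265 against 459 CPM. Ligands did not move together. Dll4 stood at 1.29 CPM with 0, 2.65 with 3 and 112 with 6, and Dll3, a ligand of progenitors that acts within the cell, at 496 CPM with 0, 839 with 5 and 526 with 6. Dll1 stood at 83.5 CPM with 0, 114 with 3 and 48.8 with 6, and Jag1 at 93.6 CPM with 0, 103 with 3 and 86.2 with 6. Mfng, a glycosyltransferase that tunes Notch ligand binding, went from 42.9 to 231 CPM. Of the 21 Notch pathway genes counted, 8 were higher and 2 lower in NPC-like barcodes in all 5 units.

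Of the 15 synaptic and mature neuronal genes counted, 14 were higher and 0 lower in barcodes with 5 or 6 genes in all 5 units (24.5% and 29.1% over all genes), among them the glutamate receptor subunit Gria2, at 273 CPM with 6 genes against 136 with 0, and Syn2, a synapsin, at 213 against 68.3. Other neuronal genes, Stmn2 of the newborn neuron list among them, were at or near 0. Nefl, Nefm and Gria1 had 0 UMIs in the 359 barcodes with 6 genes, which allows a count of up to 3, and Stmn2 and Camk2a stood at 2.42 and 2.42 CPM there. All 6 counted markers of forebrain neuroblasts (which include Dcx) were higher in NPC-like barcodes in all 5 units. Sp9, a factor of that lineage, was at 67 CPM with 6 genes against 16.8 with 0, and Dlx6 at 19.3 against 9.90. Dlx1 was at 5.03 CPM with 6 genes against 1.62 with 0, Dlx2 at 10.9 against 3.97 and Sp8 at 1.44 against 0.246. Transmitter genes of several neuron types were detected. The dopamine enzyme Th was at 25.6 CPM with 6 genes, the GABA enzyme Gad1 at 32.7 and Gad2 at 0, and the glutamate transporters Slc17a7 and Slc17a6 at 10.1 and 5.21 CPM. Among genes of regional identity, the hindbrain gene Hoxa2 was at 210.1 CPM with 6 genes against 57.8 with 0. Of the 10 regional genes at 5 CPM or more, 8 were higher in NPC-like barcodes in all 5 units and 0 lower.

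The genes that led the barcodes with 5 or 6 rule genes were chosen after their values were seen, and included Xkr7, Chrna3, Cntn2, Sez6l2, Hpca, Scrt2, Snap25, P2rx3, Rab3c, Rbfox3, Ebf3, Elavl3 and Celf3. Chrna3, a subunit of the nicotinic acetylcholine receptor, was at 165, 113 and 105 CPM in the vehicle units and 139 and 63.2 CPM in the Xevinapant units, against 0.119 to 0.354 CPM in the other tumor barcodes. P2rx3, an ATP-gated channel known from sensory neurons, was at 93, 83.8 and 129 CPM in the vehicle units and 158 and 128 CPM in the Xevinapant units, against 2.11 to 3.81 CPM. Hpca, the calcium sensor hippocalcin, was at 98.4, 95.7 and 53.2 CPM in the vehicle units and 96.7 and 61.5 CPM in the Xevinapant units, against 0.348 to 1.29 CPM. Each of these was higher in the barcodes with 5 or 6 genes in every unit, which follows from how they were chosen. No order between the groups held for all 3. Sez6l2 and Xkr7 were at 143 to 262 CPM and 122 to 255 CPM.

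Most of the glial genes counted were lower in NPC-like barcodes. All 7 OPC genes, all 4 committed OPC genes at 5 CPM or more and 4 of 5 genes of an AC list were lower in all 5 units. Of the 4 AC genes used by the study, 2 were lower and 0 higher in all 5 units. Gfap and Mlc1 are in both AC sets, so these counts are not separate. Olig2, the factor of the oligodendrocyte lineage, was at 539, 583 and 781 CPM in the vehicle units and 574 and 538 CPM in the Xevinapant units, against 656 to 993 CPM, and stood at 257 CPM with 6 genes. Sox10, a factor of the oligodendrocyte lineage, stood at 587 CPM with 0, 195 with 3 and 81.4 with 6, and Gpr17, a receptor of committed OPCs, at 1092 CPM with 0, 386 with 3 and 129 with 6. In barcodes with at least 50 C1q UMIs, Olig2 stood at 405, Sox10 at 204 and Gpr17 at 321 CPM, above the levels with 6 rule genes, and the part of free RNA or mixed droplets in these levels was not tested. Gfap, the astrocyte filament, stood at 410.1 CPM with 0, 228 with 3 and 72.9 with 6. In NPC-like barcodes Gfap was at 113, 156 and 229 CPM in the vehicle units and 97.1 and 259 CPM in the Xevinapant units, against 126 to 539 CPM, and vehicle 2 was the exception in which it was higher in NPC-like barcodes. The 10 genes with the lowest ratios were C4b, Gpr17, Lims2, Slc6a11, Gpr37l1, Matn2, Serpina3n, Clu, Tnr and Tgfa. C4b, a complement component, had log2 ratios of -1.88 to -0.96, and Serpina3n, a protease inhibitor of reactive astrocytes, of -1.95 to -0.68.

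Stem and progenitor genes split. Sox2 stood at 624 CPM with 0, 593 with 3 and 216 with 6, Nes (nestin) at 305 CPM with 0, 369.6 with 3 and 129 with 6, Vim (vimentin) at 2888 CPM with 0, 3267 with 3 and 1487 with 6 and Egfr at 160.1 CPM with 0, 221 with 3 and 69.7 with 6. Nfia and Nfib, factors of glial and neuronal maturation, went the other way, with Nfia at 215 CPM with 0, 275 with 3 and 811 with 6 and Nfib at 164 CPM with 0, 230.2 with 3 and 676 with 6. Nfia in NPC-like barcodes was at 293, 289 and 298 CPM in the vehicle units and 379 and 469 CPM in the Xevinapant units, against 216 to 252 CPM.

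Many NPC-like barcodes also met the rule of another tumor class. With at least 3 of the committed OPC genes Gpr17, Neu4, Bmp4, Bcas1, Cnksr3 and Tmem163 detected, 40.5% of the barcodes with 3 rule genes and 24.8% of those with 6 qualified as committed OPC-like as well. With at least 3 of 6 AC genes detected, 21.4% and 10.9% qualified as AC-like. Among tumor barcodes with 0, 1 and 2 rule genes the committed OPC shares were 39.0%, 40.1% and 43.5%, and the AC shares 17.2%, 19.6% and 21.1%. After thinning to 4000 UMIs the committed OPC shares with 3 and 6 rule genes were 7.58% and 2.79%, against 21.8% of tumor barcodes with 0. The AC shares were then 4.42% and 1.96%, against 10.2% with 0. At most 3 UMIs over the 6 immune marker genes were exceeded by 235 NPC-like barcodes and at most 3 endothelial UMIs by 68. At most 3 UMIs of Dcn, Lum and Dpt were exceeded by 11, and of the mural genes Rgs5, Kcnj8, Abcc9 and Higd1b by 9. In all, 308 exceeded a limit. Without Coro1a, an actin regulator that neurons express too, 79 of the 235 still exceeded the immune limit. Doublet scores by Scrublet were among the highest of their matrix in 303 NPC-like barcodes, and 10.1% of barcodes with 3 rule genes and 4.74% of those with 6 were among them, against 3.54% of tumor barcodes with 0, which had the limits on other cell types to meet. Full barcodes shared by both groups numbered 1413, of which 78 were NPC-like in 1 group and 0 in both.

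Levels were also read by chromosome. Mean log2 ratios to reference barcodes (over 3 C1q UMIs, or endothelial) were taken over 20 chromosomes and 8911 genes. They gave r = 0.703 between NPC-like and other tumor barcodes and r = 0.109 between NPC-like and endothelial barcodes. This is a description across chromosomes of the same libraries. All these ratios share 1 denominator, which holds the endothelial barcodes themselves, so the sizes of r are not compared. The reference was not held to host cells alone. Of its 3881 barcodes with over 3 C1q UMIs, 9.04% reached 3 rule genes, against 8.95% of the barcodes that passed. The 62 endothelial barcodes that counted as NPC-like were in the NPC-like sums, the endothelial sums and the reference. Chromosomes 4 and 19 were lowest in both tumor classes, at -0.19 and -0.20 in NPC-like and -0.15 and -0.14 in the other tumor barcodes, and stood at -0.02 and -0.03 in endothelial barcodes. The largest difference between the tumor classes, 0.116, was on chromosome 2, and barcodes with 5 or 6 genes differed most there too, by 0.223 (r = 0.562).

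Cell cycle genes were detected most often in NPC-like barcodes with 3 rule genes and least often in those with 6. After thinning to 4000 UMIs, at least 3 of the G2/M genes were detected in 65.4% of barcodes with 0 rule genes, 79.3% with 1 and 84.6% with 2. With 3, 5 and 6 rule genes the shares were 87.5%, 63.0% and 38.5%. For the G1/S genes the shares were 74.2% with 0, 87.3% with 1, 92.0% with 2, 93.3% with 3, 73.8% with 5 and 57.5% with 6. Without thinning the G2/M shares were 86.9% with 0, 98.3% with 3 and 90.0% with 6. Top2a, the topoisomerase of dividing cells, stood at 587 CPM with 0, 973 with 3 and 417 with 6, and Mki67, a marker of cells in cycle, at 493 CPM with 0, 759 with 3 and 296 with 6. In barcodes with at least 50 C1q UMIs they stood at 571 and 448 CPM, above the levels with 6 rule genes and below those with 3, and the part of free RNA in these shares was not tested. Of 24 G2/M genes, 19 were higher and 0 lower in NPC-like barcodes in all 5 units, whereas among barcodes with 5 or 6 genes 0 were higher and 16 lower, against a background of 24.5% higher and 29.1% lower over all genes. Btg2, an antiproliferative gene switched on before neurogenic divisions, went from 78.7 CPM with 0 to 204 with 5 and 159.8 with 6. Cdkn1b, which makes the cell cycle inhibitor p27, went from 225 to 299.7 CPM. Median depth differed across these barcodes, at 10948 UMIs with 0, 17987 with 1, 24549 with 2, 29416 with 3 and 25729 with 6. Thinning evens the reading of the cell cycle genes, but not the choice of barcodes by detected rule genes. The part of depth in the thinned and unthinned shares was not tested.

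**Figure D3:**
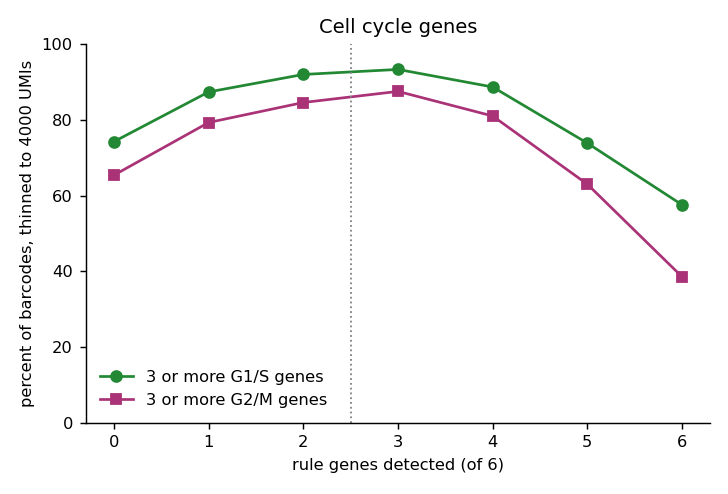
Percent of barcodes, each thinned to 4000 UMIs, with at least 3 G1/S genes (circles) or at least 3 G2/M genes (squares) detected, against the number of rule genes detected; the dotted line marks the limit of 3. Both curves peak at 3 detected genes, at 93.3% and 87.5%, and are lowest at 6, at 57.5% and 38.5%.

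The genes of the IAP proteins, the direct targets of Xevinapant, were detected in NPC-like and other tumor barcodes of every unit. Birc2, which makes cIAP1, was at 32.3, 31.3 and 34.2 CPM in the vehicle units and 29.6 and 40.4 CPM in the Xevinapant units, against 34 to 40.4 CPM in the other tumor barcodes. Birc3, which makes cIAP2, was at 7.05, 6.91 and 11.9 CPM in the vehicle units and 10.7 and 11.5 CPM in the Xevinapant units, and Xiap at 17.8, 14.7 and 24.2 CPM in the vehicle units and 11.2 and 16.9 CPM in the Xevinapant units. Casp8, the caspase that death receptors recruit, was at 0.987 to 1.90 CPM in NPC-like barcodes and at 53.2 CPM in barcodes with at least 50 C1q UMIs. Several genes of the intrinsic pathway were higher with 6 rule genes than with 0. The BH3-only genes Bmf, Bbc3 and Hrk stood at 99.8, 88.6 and 29.8 CPM with 6 against 31.3, 36.2 and 5.82 CPM with 0. The antiapoptotic gene Bcl2l1 went from 87.4 to 146 CPM and Bcl2 from 24 to 7.54 CPM. Of 25 genes of the IAP and death machinery tested, none was called between treatments in NPC-like barcodes and 1 was higher at an unadjusted p under 0.05. Over all 13115 genes tested 0 were called (0.0%), and 4.71% were higher and 4.9% lower at that p.

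The share of NPC-like barcodes was compared between treatments among tumor barcodes. It was 12.1%, 12.4% and 4.67% in the vehicle units and 4.04% and 13.6% in the Xevinapant units. Vehicle 4 and Xevinapant 1 and 2 were low, the other 3 units high, and the groups overlapped. The means were 9.75% ± 4.40 (SD, n = 3) under vehicle and 8.81% ± 6.74 (SD, n = 2) under Xevinapant, a difference of -0.949 percentage points (p = 0.9 by exact permutation over units, two-sided, with 0.1 the smallest value that 3 against 2 units can give). With at least 5 genes, a limit added after the data were seen, the shares were 1.91% ± 1.18 and 2.75% ± 2.56, a difference of 0.836 percentage points (exact permutation test, p = 0.6). Leaving out Xevinapant 1 and 2 gave a difference of 3.81 and leaving out Xevinapant 3 and 4 one of -5.71 percentage points, so the sign rested on single units. Fewer cells of this kind and less RNA per cell for the 6 genes cannot be told apart by a share that depends on detection.

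**Figure D4:**
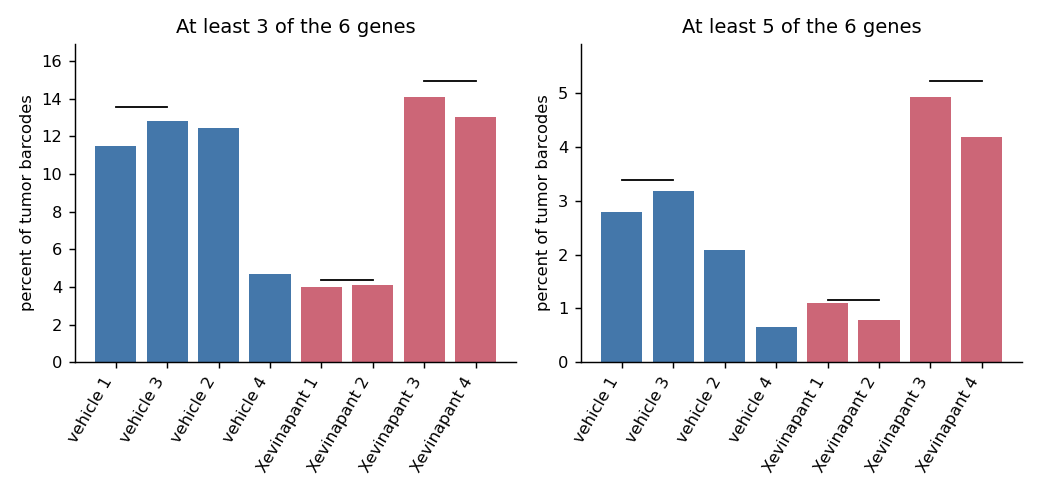
Percent of tumor barcodes that were NPC-like in each of the 8 matrices, with at least 3 (left) or at least 5 (right) of the 6 rule genes; blue is vehicle and red Xevinapant, and a black line joins the matrices taken as 1 unit. Vehicle 4 and Xevinapant 1 and 2 are low, at 4.67%, 3.99% and 4.10% on the left, and the groups overlap.

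The rule genes were also read in the sums of all tumor barcodes, as a description, since the limits on other cell types did not apply to barcodes with at least 3 rule genes. Igfbpl1 was at 15.5, 12.7 and 5.32 CPM in the vehicle units and 12 and 72 CPM in the Xevinapant units, and Xevinapant 3 and 4 stood above all other units. Insm1 was at 60.9, 58.2 and 31.6 CPM in the vehicle units and 32.4 and 70.6 CPM in the Xevinapant units, Nhlh1 at 16.9, 13.9 and 4.52 CPM in the vehicle units and 8.01 and 27.8 CPM in the Xevinapant units, and Neurod1 at 77.5, 79.5 and 74.3 CPM in the vehicle units and 45.9 and 116 CPM in the Xevinapant units. Vehicle 4 was lowest for 5 of the 6 rule genes, Neurod1 being the exception. Over all tumor barcodes 0 of 14545 genes were called (0.0%), while 890 (6.12%) were higher and 841 (5.78%) lower at an unadjusted p under 0.05, and DESeq2 called 329.

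Within NPC-like barcodes, Xevinapant and vehicle were compared by edgeR's quasi-likelihood test on UMI sums per unit. Of 13115 genes 0 were called at an adjusted p of 0.05 (0.0%), while 618 (4.71%) were higher and 642 (4.9%) lower at an unadjusted p under 0.05. DESeq2 called 70 higher (0.534%) and 63 lower genes (0.48%), 1.01% in all. With each of the 8 matrices taken as 1 mouse, edgeR called 149 higher (1.18%) and 175 lower genes (1.39%), 2.57% in all. The 5 genes with the smallest p in each direction had edgeR adjusted p of 0.176 to 0.362. Among the higher ones were the immediate early genes Fos and Egr1 and the Notch ligand Dll4. Fos was at 56.7, 34.1 and 52.1 CPM in the vehicle units and 141 and 138 CPM in the Xevinapant units, with a log2 difference of 1.51 (SE 0.20, edgeR adjusted p = 0.206), and both Xevinapant units lay above all vehicle units. In the other tumor barcodes Fos was at 112, 70.9 and 58.3 CPM in the vehicle units and 359 and 300.2 CPM in the Xevinapant units. Dll4 was at 7.17, 9.25 and 11.7 CPM in the vehicle units and 29.8 and 35.8 CPM in the Xevinapant units, with a log2 difference of 1.77 (SE 0.23, edgeR adjusted p = 0.206), and the groups did not overlap. Hoxa5 was at 40.9, 34.8 and 42.1 CPM in the vehicle units and 98.2 and 81.6 CPM in the Xevinapant units, with a log2 difference of 1.15 (SE 0.14, edgeR adjusted p = 0.183). Sh3rf3, a ubiquitin ligase that scaffolds JNK signaling, and Egr1 completed the 5, with log2 differences of 1.30 and 1.01.

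The 5 genes with the smallest p among the lower ones were Sparcl1, Adgra1, Ndufb3, Ddb1 and Rprm. Sparcl1, a matrix protein of astrocytes and progenitors, was at 829, 841 and 790.1 CPM in the vehicle units and 537 and 530.5 CPM in the Xevinapant units, with a log2 difference of -0.66 (SE 0.12, edgeR adjusted p = 0.351). Its levels in the other tumor barcodes were 1012, 988 and 941 CPM in the vehicle units and 748 and 799 CPM in the Xevinapant units, with the Xevinapant units again below all vehicle units. Ndufb3, a subunit of respiratory complex I, was at 26.7, 21.5 and 23.8 CPM in the vehicle units and 10.04 and 13 CPM in the Xevinapant units. The other tumor barcodes held it at 26.3, 22.5 and 22.4 CPM in the vehicle units and 9.66 and 13.7 CPM in the Xevinapant units, with the groups again apart. Ddb1, a DNA repair and ubiquitin ligase adaptor, and Adgra1, an adhesion receptor, had log2 differences of -0.77 and -0.89, and Rprm (reprimo), a p53 target that halts the cycle, one of -0.75. For the genes named here the groups did not overlap, which follows in part from choosing them by the smallest p.

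Lists are given by counts at an unadjusted p under 0.05, since no gene was called, and are to be set against 4.71% higher and 4.9% lower over all genes. Of 20 immediate early and stress genes 10 were higher and 0 lower, with a median log2 difference of 0.63 against 0.00287 over all genes tested. Of 24 G2/M genes 0 were higher and 12 lower (median -0.34). Of 36 newborn neuron genes 9 were higher and 1 lower (median 0.20). Of 26 genes of the proneural list outside the rule, the Id genes and Rest included, 9 were higher and 1 lower (median 0.45). Of 22 Notch pathway genes 6 were higher and 0 lower (median 0.06). Elavl3 had a log2 difference of 0.90 (SE 0.17, edgeR adjusted p = 0.362), Tubb3 one of 0.29 (SE 0.26, edgeR adjusted p = 0.755) and Dcx one of 0.22 (SE 0.19, edgeR adjusted p = 0.744). Birc2 had a log2 difference of 0.08 (SE 0.17, edgeR adjusted p = 0.918) and Xiap one of -0.44 (SE 0.28, edgeR adjusted p = 0.655). The share of NPC-like barcodes with 5 or 6 genes differed between units, and its part in these sums was not tested. In all tumor barcodes, NPC-like ones included, 13 of the 20 stress genes were higher and 0 lower (median 0.88). Of the 24 G2/M genes 0 were higher and 22 lower there (median -0.49). Of 37 newborn neuron genes 4 were higher and 2 lower, and of 27 proneural genes 2 and 2. Over all genes 6.12% were higher and 5.78% lower there.

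Cell cycle genes were also read per barcode after thinning. At least 3 G2/M genes were detected in 78.9%, 79.2% and 88.2% of NPC-like barcodes in the vehicle units and in 72.9% and 72.1% in the Xevinapant units. The Xevinapant units lay below all vehicle units. The difference was -9.59 percentage points (two-sided exact permutation over units, p = 0.1, which is as low as 3 against 2 units can go), with 82.1% ± 5.31 (SD, n = 3) against 72.5% ± 0.53 (SD, n = 2), and 96.9% against 94.6% without thinning. For G1/S genes the difference was -7.77 percentage points (exact permutation test, p = 0.1). In the other tumor barcodes the differences were -15.9 for G2/M (exact permutation test, p = 0.2) and -11.3 percentage points for G1/S (exact permutation test, p = 0.1). Whether the NPC-like and other tumor differences differed from each other was not tested for these shares.

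Whether the treatment difference in NPC-like barcodes differed from that in the other tumor barcodes was tested by an interaction term with the unit as a block. Of 14438 genes 128 were called (0.887%), 38 with a higher (0.263%) and 90 (0.623%) with a lower log2 difference in NPC-like than in other tumor barcodes. Without the 6 rule genes, which cannot be read in this contrast, 35 were higher and 90 lower. At an unadjusted p under 0.05, 843 genes (5.84%) had a higher and 1094 (7.58%) a lower difference. The calls rested in good part on vehicle 2, without which 10 genes were called, 9 of them among the 128. Without vehicle 4, Xevinapant 1 and 2, vehicle 1 and 3 or Xevinapant 3 and 4 the calls numbered 47, 53, 117 and 195, of which 40, 36, 68 and 61 were among the 128, while all 128 kept their direction in each of the 5 fits.

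Genes of hypoxia and glycolysis formed the largest called group among the lists. Of 29 hypoxia genes 9 had a lower difference in NPC-like barcodes and 0 a higher one, and 23 had a lower one at an unadjusted p under 0.05 (median -0.51 against 0.01 over all genes). Of 21 glycolysis genes 5 had a lower difference, namely Eno2, Hk1, Pdk1, Slc2a3 and Tpi1. Ndrg1, a hypoxia-induced gene that the study used as a MES-like marker, was at 26.3, 22 and 24.5 CPM in the vehicle units and 26.5 and 20.9 CPM in the Xevinapant units in NPC-like barcodes. In the other tumor barcodes it was at 36.6, 18.2 and 21.5 CPM in the vehicle units and 65.8 and 52.5 CPM in the Xevinapant units, and the difference of the log2 differences was -1.30 (SE 0.20, edgeR adjusted p = 0.0314). Ero1l, an oxidase of the endoplasmic reticulum that hypoxia induces, was at 458, 581 and 374 CPM in the vehicle units and 438 and 278 CPM in the Xevinapant units in NPC-like barcodes. It was at 743, 904 and 519 CPM in the vehicle units and 1137 and 774 CPM in the Xevinapant units in the other tumor barcodes, a difference of -0.83 (SE 0.07, edgeR adjusted p = 0.00411). Vegfa, the angiogenic growth factor, was at 293, 282 and 196 CPM in the vehicle units and 456 and 237 CPM in the Xevinapant units in NPC-like barcodes. Its levels in the other tumor barcodes were 434, 381 and 289.6 CPM in the vehicle units and 888 and 552 CPM in the Xevinapant units, a difference of -0.58 (SE 0.08, edgeR adjusted p = 0.0288). P4ha2, a collagen prolyl hydroxylase, had a difference of -1.31 (SE 0.15, edgeR adjusted p = 0.0133). In the other tumor barcodes the Xevinapant units lay above all vehicle units for Ndrg1, P4ha2 and Vegfa but not for Ero1l. In NPC-like barcodes the groups overlapped for all 4. The share of all genes with units so separated is not given here, so nothing is read from these separations. The other tumor barcodes also differed in makeup between units. Those with 0 rule genes numbered 2357, 1655 and 3014 in the vehicle units and 2717 and 3101 in the Xevinapant units. Those with 1 rule gene numbered 2038, 1917 and 4878 against 1451 and 3495. Ero1l stood at 1224 CPM with 0 and 602 with 1, and Ndrg1 at 73.3 and 25.4 CPM. The part of this makeup in the differences was not tested.

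Collagen genes were among the named genes with a lower difference. Col1a1, the fibrillar collagen of fibroblasts, was at 85.3, 29.3 and 64.5 CPM in the vehicle units and 110.1 and 32.1 CPM in the Xevinapant units in NPC-like barcodes. It was at 85.4, 29.6 and 52.4 CPM in the vehicle units and 412 and 90.9 CPM in the Xevinapant units in the other tumor barcodes, a difference of -1.79 (SE 0.14, edgeR adjusted p = 0.00411). The 6 fibroblast markers (Dcn, Lum, Dpt, Col1a1, Col1a2 and Col3a1) summed to 47.0 to 124 CPM under vehicle and 130 to 601 CPM under Xevinapant in the other tumor barcodes. In NPC-like barcodes they summed to 56.3 to 139 and 49.2 to 130 CPM. Col1a1 made up most of the sum in the other tumor barcodes, so the sum is no separate reading from Col1a1. Only Dcn, Lum and Dpt were limited in the other tumor barcodes. The part of fibroblast RNA in these results was not tested, and among the 6 markers Col1a1 and Col3a1 were called. Col2a1, a cartilage collagen, was at 1387, 1228 and 465 CPM in the vehicle units and 1607 and 691 CPM in the Xevinapant units in NPC-like barcodes. The other tumor barcodes held it at 1751, 1642 and 494 CPM in the vehicle units and 4205 and 1759 CPM in the Xevinapant units, and the difference was -1.09 (SE 0.10, edgeR adjusted p = 0.00411). Mgp, a matrix inhibitor of calcification, had a difference of -1.25 (SE 0.14, edgeR adjusted p = 0.0108), and Col6a2 one of -1.20 (SE 0.21, edgeR adjusted p = 0.0464).

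The rest of the named lower genes were Tcim, Serpina3n, Cdkn1a and Anxa2. Cdkn1a, the p53 target that makes the cell cycle inhibitor p21, was at 65.2, 41.5 and 30 CPM in the vehicle units and 53.6 and 28 CPM in the Xevinapant units in NPC-like barcodes. Levels in the other tumor barcodes were 81.9, 54.7 and 32.2 CPM in the vehicle units and 127 and 76.6 CPM in the Xevinapant units, and the difference was -1.08 (SE 0.10, edgeR adjusted p = 0.00411). Serpina3n had a difference of -1.11 (SE 0.09, edgeR adjusted p = 0.00411), Anxa2, a calcium-dependent membrane protein, one of -1.04 (SE 0.15, edgeR adjusted p = 0.0299), and Tcim one of -1.21 (SE 0.22, edgeR adjusted p = 0.0479). Dusp1 and Ier3 were called lower among the 20 stress genes, at -0.58 and -0.93.

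The 10 named genes with a higher difference were Nsg2, Ebf3, Grin3a, Apcdd1, Kalrn, Hoxa5, Map2k6, Tecta, Prom1 and Zfp423. Nsg2, a vesicle protein of neurons, was at 114, 79.2 and 114 CPM in the vehicle units and 146 and 159 CPM in the Xevinapant units in NPC-like barcodes. In the other tumor barcodes it was at 58.2, 37.8 and 74.1 CPM in the vehicle units and 35.9 and 46 CPM in the Xevinapant units, and the difference was 1.01 (SE 0.13, edgeR adjusted p = 0.0221). Kalrn, a guanine nucleotide exchange factor of dendrites, was at 53.8, 49.5 and 46.9 CPM in the vehicle units and 80.1 and 81 CPM in the Xevinapant units in NPC-like barcodes. Other tumor barcodes held it at 24.4, 27.8 and 29.7 CPM in the vehicle units and 25.4 and 24.4 CPM in the Xevinapant units, a difference of 0.82 (SE 0.14, edgeR adjusted p = 0.0454). Hoxa5, a homeobox factor, had a difference of 0.77 (SE 0.08, edgeR adjusted p = 0.00652), and Ebf3 one of 0.98 (SE 0.16, edgeR adjusted p = 0.0411). Grin3a, a glutamate receptor subunit of immature neurons, had a difference of 0.89 (SE 0.15, edgeR adjusted p = 0.0437), and Prom1, the stem cell antigen CD133, one of 0.70 (SE 0.13, edgeR adjusted p = 0.0496). Nfia and Nfib were called as well, at 0.55 and 0.65, with Hoxa2 and Meis2 among the regional genes, Scrt1 among the proneural factors and Stmn1 among the newborn neuron genes. Among 21 secretory granule genes Vgf was called lower (edgeR adjusted p = 0.0108), with 3 higher and 4 lower at an unadjusted p under 0.05. None of the 25 IAP and death genes was called, with Birc2 at -0.03 (SE 0.13, edgeR adjusted p = 0.946).

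With members limited to barcodes with 5 or 6 rule genes, 71 genes had a higher (0.499%) and 164 a lower difference (1.15%), together 1.65% of 14222, and 69 of the 128 genes were among them. Limited to barcodes with exactly 3, 0 genes had a higher and 13 a lower difference, 11 of them among the 128. There 121 of the 128 kept their direction, and Ebf3 stood at 0.00 where it had 0.98. With the other tumor barcodes limited to those at or above the lower quartile of NPC-like UMIs in their matrix, which brought the depths closer without making them equal, 80 genes were called, 76 of them among the 128. Without NPC-like barcodes that held UMIs of other cell types, 136 were called, 103 of them among the 128. All 4 settings were added after the data were seen, and rule genes were not taken out of their counts. The share of NPC-like barcodes with 5 or 6 rule genes differed between units, and its part in these calls was not tested.

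**Figure D5:**
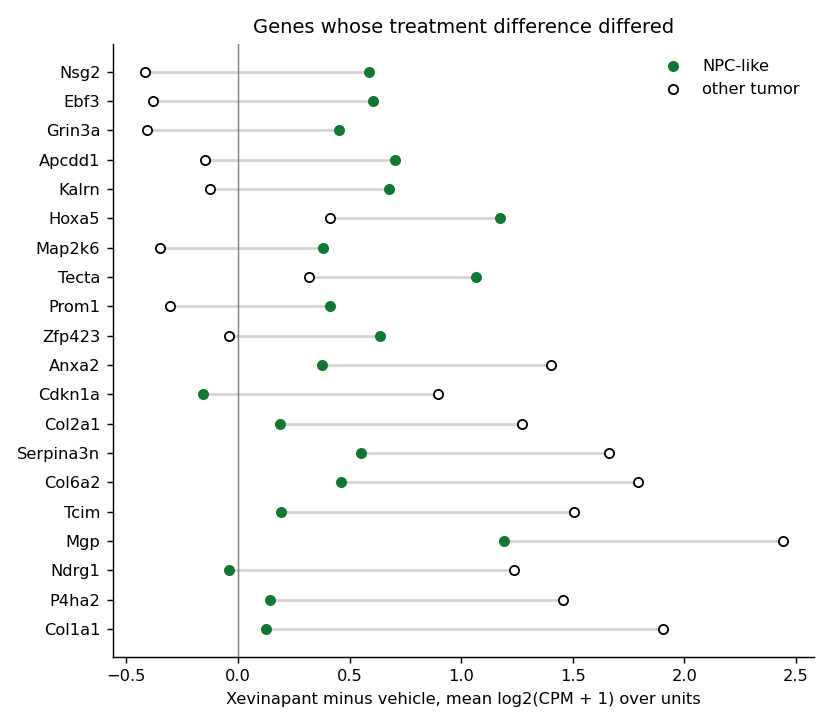
Xevinapant minus vehicle difference in mean log2(CPM + 1) over units for the 20 named genes, in NPC-like barcodes (green) and the other tumor barcodes (white), with no test of the single points. The upper 10 genes lie further right in NPC-like barcodes and the lower 10 further right in the other tumor barcodes, as for Col1a1, whose difference of the log2 differences was -1.79.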

How the data were processed

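Tumors of both groups were dissociated and profiled on the 10x Genomics platform with probes, and the authors deposited 4 UMI count matrices per group. Names of the Xevinapant matrices contain "Vehicle"; these matrices were assigned to Xevinapant by their GEO sample record and its treatment label. The deposited counts were made by the authors with Cell Ranger on mm10 (the labels give version 3.0 and the matrix headers 7.1.0) and hold filtered barcodes by gene, unnormalized. The study's analysis in Seurat 4.0, which removed doublets found by more than one caller, is not part of these matrices, so doublets were not removed here. Scrublet scores marked the top 0.8% per 1000 barcodes in an alternative.

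Here, barcodes with at least 200 genes, at most 10% mitochondrial UMIs, a complexity of at least 0.8 and at least 0.333 of their matrix's median UMIs were kept with scanpy 1.11.5, and counts over 19059 genes were summed per unit and class. Matrices whose mean NPC-like levels differed by less than 1.5 times the sampling noise between barcodes were joined. This held for the sums of all tumor barcodes as well, and the shares of joined matrices were averaged. Sums were tested with edgeR 4.0.16 (TMM, filterByExpr, glmQLFit, glmQLFTest, Benjamini-Hochberg at 0.05) in R 4.3.3, with DESeq2 1.42.0 as an alternative. The per-cell tests of the study were replaced by these sums, since cells are not replicates. Shares were compared by exact permutation over units. NPC-like and other tumor barcodes were compared by log2 ratios of CPM with a pseudocount of 1, with no test. Named genes were the 20 highest and 10 lowest by the ratio that held in every unit (50 CPM or more), and for treatment the 10 strongest calls in each direction without overlap between groups, or failing calls the 5 with the smallest p. Intervals cover counting error only. The members and gene lists were chosen with earlier results of these data known. Alternatives covered normalization, the filter, the unit of replication, marker number, doublets, mixed droplets, depth and each unit left out. Tests were checked on simulated data. Promoter stretches are from RefSeq (GRCm38.p6).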

Additional observations from a re-analysis of the deposited data

Results flagged for a closer look

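Vehicle matrix 4 stood apart in the share of NPC-like barcodes, at 4.67% against 11.5% to 12.8% in the 3 other vehicle matrices. Its gap to the nearest matrix was 0.841 of the range of the group, above Dixon's limit for 4 values, which chance passes in about 1 in 20 groups. This counts vehicle 1 and 3 as 2 values, though they were nearly alike and were joined as 1 unit elsewhere. The limit was not applied to the 3 vehicle units.

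The treatment difference in NPC-like barcodes differed from that in the other tumor barcodes for 128 genes (edgeR, adjusted p below 0.05). Of these, 3 were the rule genes Chgb, Igfbpl1 and Insm1, which cannot be read in this contrast. Without the rule genes 35 had a higher and 90 a lower difference. The differences of the log2 differences among the named genes were 1.01 for Nsg2, 0.977 for Ebf3, 0.893 for Grin3a, 0.877 for Apcdd1, 0.818 for Kalrn, 0.771 for Hoxa5, 0.734 for Map2k6, 0.719 for Tecta, 0.701 for Prom1 and 0.669 for Zfp423. On the other side they were -1.79 for Col1a1, -1.31 for P4ha2, -1.30 for Ndrg1, -1.25 for Mgp, -1.21 for Tcim, -1.20 for Col6a2, -1.11 for Serpina3n, -1.09 for Col2a1, -1.08 for Cdkn1a and -1.04 for Anxa2. The summed fibroblast markers in the other tumor barcodes were higher under Xevinapant, but Col1a1 made up most of that sum. For Col1a1 and Col6a2 the part of fibroblast RNA was not tested.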

How the results depend on the processing

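Calls between treatments depended on the unit of replication and the tool, and the cause was not tested. In NPC-like barcodes 0 genes were called; DESeq2 called 133, no filter 84, the 8 matrices as mice 324 and at least 5 rule genes 3 (Tgfb2, Prdm8 and Sox1). Leaving out units gave 0 to 2 calls, the 2 being the rule gene Igfbpl1 and Prdm8 without Xevinapant 1 and 2. All other settings with joined units gave 0. In all tumor barcodes 0 genes were called, against 329 by DESeq2, 2 without a filter (Csn3 and Wfdc18) and 751 over 8 matrices. These genes were named after their values were seen.

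For the difference between the classes, 128 genes were called, against 380 by DESeq2, 694 without a filter, 553 over 8 matrices, 235 with at least 5 rule genes, 13 with exactly 3 and 80 against other tumor barcodes above the lower quartile of NPC-like depth. Leaving out units gave 10 to 195. Rule genes were not taken out of these counts. At exactly 3 rule genes 121 of the 128 genes kept their direction, and Ebf3, among the rest, reversed to -0.00369.

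The difference in the NPC-like share, -0.949 percentage points, became 0.509 with at least 4 rule genes, 0.836 with at least 5 and 0.894 after thinning, and lay between -5.71 and 3.81 when units were left out. It was positive without vehicle 1 and 3 (0.248), vehicle 2 (0.394) or Xevinapant 1 and 2 (3.81).

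With a replicate block on the matrix number, 43 genes were called over 8 matrices, against 324 without it. The numbers come from the matrices, and of the 4 same-numbered pairs 2 deviated together and 2 did not (r = 0.301 and 0.253, 0.0320 and -0.241), so the block was not used elsewhere. With 2 or 3 units a group, and 192 barcodes in the smallest, small changes may have gone undetected.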
